A study of Mus musculus with 6 samples.

Results

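The endoplasmic reticulum (ER) folds the proteins that a cell secretes or carries on its surface. The RNA of 32 mouse genes that run the unfolded protein response and the integrated stress response was read in CD8 T cells with and without CD73. The members were fixed by name, through the gene symbol of each deposited identifier, and all 32 were found among 49671 genes of the table. They fall into 14 ER chaperones and folding enzymes, 4 genes of ER-associated degradation, 4 sensors and effectors (Ern1, Xbp1, Atf6 and Eif2ak3), Atf4, and 9 genes known as targets of ATF4. All 32 passed the filter on low counts, which left 12242 genes to test.

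The cells were OT-I CD8 T cells, which carry a transgenic receptor for the ovalbumin peptide SIINFEKL, isolated from mouse spleen. One group of 3 libraries is labelled CD73 KO and the other group of 3 is labelled WT. CD73, encoded by Nt5e, is a surface enzyme that makes adenosine from AMP. Both groups received the peptide at 10 ng/mL daily for 5 days with IL-7 and IL-15 at 5 ng/mL each and were replated after 48 h, a culture intended to induce exhaustion, and live cells were sorted. The sources used here give no sex or age of the animals and no description of the knockout allele. They do not say either whether libraries of a genotype stem from separate mice or cultures, so a p-value measures the spread between these libraries, which may be technical.

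In the unfolded protein response, unfolded protein in the ER lumen activates IRE1 (encoded by Ern1), ATF6 and PERK (encoded by Eif2ak3). IRE1 splices the mRNA of Xbp1, and XBP1 and cleaved ATF6 then switch on chaperones, folding enzymes and the machinery that pulls misfolded proteins out of the ER for degradation. PERK phosphorylates the translation factor eIF2, as do other kinases that sense amino acid shortage, viral RNA or haem shortage. This shared step is the integrated stress response: bulk translation drops while the mRNA of Atf4 is translated, and ATF4 induces genes of amino acid synthesis and stress regulators such as Ddit3, which encodes CHOP. Activated T cells enlarge their ER as they grow, and XBP1 and ATF4 have both been studied in T cells under stress.

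Library totals ran from 10202128 to 19382950 counts in CD73 KO and from 6934150 to 13039990 in WT, and levels are given as CPM, counts scaled to a common library total. Nt5e stood at 3.67, 8.44 and 8.46 CPM in CD73 KO and at 22.5, 5.21 and 37.4 CPM in WT. The library labelled WT replicate 2 thus lay inside the CD73 KO range for the targeted gene, and the groups overlapped. Nt5e itself did not pass the adjusted threshold of 0.05 in edgeR's quasi-likelihood test (log2 fold change -1.67 ± 0.72, CD73 KO against WT, adjusted p = 0.534). The counts, medians and main members are also given without WT replicate 2, together, further on. Group names are those of the labels, and replicates 1 to 3 stand for the E1 to E3 that the labels give in both groups. All 7 markers of CD8 T cells (Cd8a, Cd8b1, Cd3e, Cd3d, Cd3g, Trac, Cd2) had at least 1556 counts in every library. Plasma cells, which hold a large ER, were looked for with 6 markers. Of these, Tnfrsf17 had 0 counts in every library, Mzb1 at most 1, Jchain 3 to 12 and Derl3 5 to 11. Sdc1 had 123 to 282 counts, with 13.0, 16.4 and 19.1 CPM in CD73 KO and 21.9, 23.3 and 17.5 CPM in WT. Its groups overlapped, and its log2 fold change was -0.38 ± 0.18 (adjusted p = 0.539). The 6 markers summed to 108 to 146 CPM in CD73 KO and 130 to 173 CPM in WT, most of it Xbp1, itself a member here. The part of plasma cells in the results was not tested. Of 8 myeloid markers, 5 (Lyz2, Csf1r, C1qa, Spi1 and Siglech) had 0 counts in every library, and the sum of the 8, nearly all Ctss, was 72.0 to 90.2 CPM in CD73 KO and 46.7 to 63.8 CPM in WT. The part of Ctss-expressing cells in the results was not tested. Among B cell markers, Ms4a1 and Pax5 had 0 counts in every library, and Cd79a at most 2. Ighm, however, stood at 689 to 818 CPM over the 6 libraries. Ighd had 38.2, 38.8 and 46.1 CPM in CD73 KO and 27.9, 18.7 and 24.0 CPM in WT, without overlap (log2 fold change 0.80 ± 0.16, adjusted p = 0.203). The part of immunoglobulin RNA in the results was not tested. In bulk RNA, fewer cells of a type and less RNA per cell cannot be told apart.

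No member differed between the genotypes past the adjusted threshold of 0.05 in edgeR's quasi-likelihood test, against 0.0572% of all tested genes (7 of 12242) and 0.0163% called as lower. Without that adjustment, 11 of 32 members had p under 0.05, all 11 lower in CD73 KO. The share among all tested genes was 9.64% in either direction, 3.89% for lower and 5.75% for higher in CD73 KO. DESeq2 called 0 members and 0.81% of the 12222 genes for which it gave an adjusted p. It put 11 members below an unadjusted 0.05, and 4.96% of all genes with any count. That base includes low-count genes, so the 4.96% is not comparable with the 9.64% of edgeR. With every low-count gene kept in, edgeR called Pdia6 and Asns among 298 of 21315 genes. Of the 11, 9 were ER chaperones or folding enzymes, and the other two were Asns and Phgdh, which make amino acids. The CD73 KO libraries lay below every WT library in 10 of 32 members, where 7.61% of all tested genes did so, and above every WT library in 0 members, against 7.56%. Fold changes are CD73 KO against WT on the log2 scale. Their median was -0.16 over the members, 25 of which were lower, and 0.01 over all tested genes, 47.7% of which were lower.

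**Figure D1:**
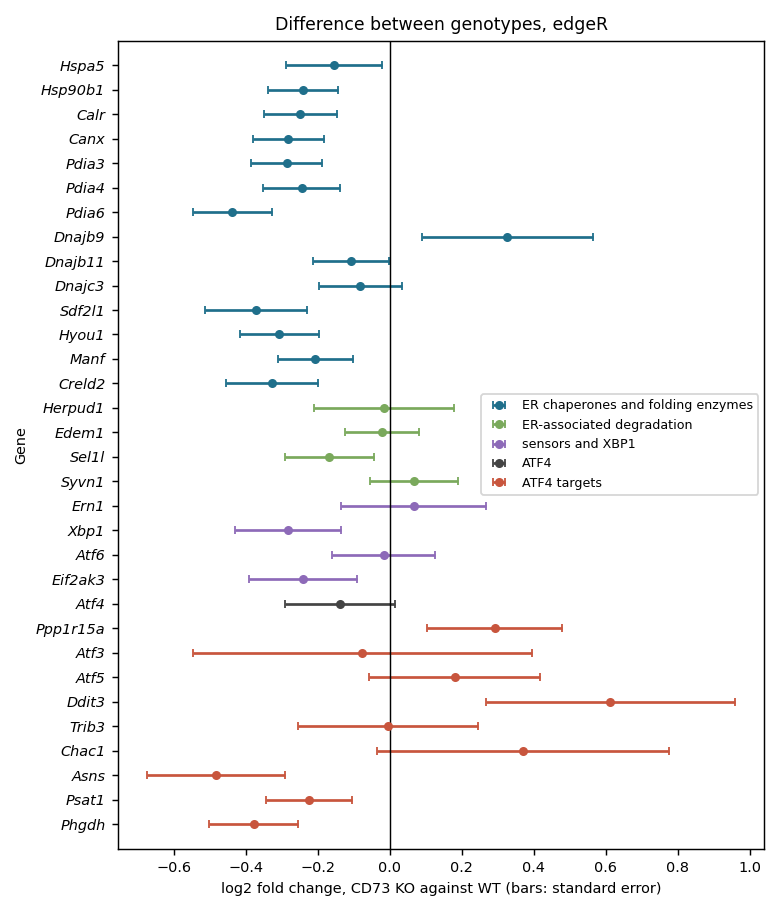
Log2 fold change of each of the 32 genes, CD73 KO against WT (x axis), with its standard error as a bar, ordered and coloured by role. Of 14 ER chaperones and folding enzymes 13 lie left of 0, with Dnajb9 at 0.33 the exception, while the ATF4 targets spread from -0.48 to 0.61.

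Most ER chaperones and folding enzymes had slightly lower values in CD73 KO, none past the adjusted threshold. Of 14 genes 13 were lower, the median log2 fold change was -0.25, and 9 had an unadjusted p under 0.05. In 9 genes no CD73 KO library reached the lowest WT library. Hspa5 encodes BiP, the main ER chaperone, which also holds the sensors inactive. It had 983, 709 and 717 CPM in CD73 KO and 940, 907 and 836 CPM in WT. CD73 KO replicate 1 was the highest of all 6 libraries and the other CD73 KO libraries were the lowest, so the groups overlapped, and the log2 fold change was -0.16 ± 0.13 (SE, adjusted p = 0.726). It was -0.33 when CD73 KO replicate 1 was left out, -0.074 when replicate 2 was and -0.081 when replicate 3 was.

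Hsp90b1, the ER form of HSP90, did not show this split. It had 1030, 1020 and 916 CPM in CD73 KO and 1177, 1220 and 1111 CPM in WT. The groups did not overlap, and the log2 fold change was -0.24 ± 0.10 (adjusted p = 0.488). Pdia6, a disulfide isomerase, differed most among the chaperones by p-value. It had 209, 225 and 261 CPM in CD73 KO against 317, 320 and 303 CPM in WT, and the fitted difference was -26.1%. The groups did not overlap, though the gap between them was narrower than the range of the CD73 KO libraries, and the log2 fold change was -0.44 ± 0.11 (adjusted p = 0.288, and 0.0417 to 0.999 over the alternatives).

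The partners of the calnexin cycle, which folds glycoproteins, had like differences. Calnexin (Canx) had 615, 640 and 582 CPM in CD73 KO and 765, 782 and 687 CPM in WT. Calreticulin (Calr) had 897, 773 and 834 CPM against 987, 1058 and 930 CPM. Pdia3, the disulfide isomerase that binds both, had 840, 846 and 807 CPM against 1031, 1086 and 923 CPM. In all 3 genes the CD73 KO libraries were below every WT library, and the library labelled WT replicate 2 was the highest. Their log2 fold changes were -0.28 ± 0.10, -0.25 ± 0.10 and -0.29 ± 0.10, with adjusted p of 0.418, 0.496 and 0.407.

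Pdia4, another disulfide isomerase, had 173, 172 and 189 CPM in CD73 KO against 221, 221 and 191 CPM in WT. Hyou1, which exchanges the nucleotide of BiP, had 176, 170 and 188 CPM against 239, 225 and 195 CPM. The groups stayed narrowly apart in these genes, since CD73 KO replicate 3 lay just under WT replicate 3. Creld2 had 46.8, 43.4 and 57.2 CPM in CD73 KO and 63.4, 63.1 and 58.2 CPM in WT. Manf, a secreted protein held in the ER, had 109, 110 and 118 CPM against 133, 138 and 119 CPM, again a narrow gap between the replicates numbered 3. Their log2 fold changes were -0.25 ± 0.11 for Pdia4, -0.31 ± 0.11 for Hyou1, -0.33 ± 0.13 for Creld2 and -0.21 ± 0.10 for Manf.

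Sdf2l1 works with BiP and the ER DNAJ proteins, and was picked for its values. It had 53.5, 58.0 and 76.2 CPM in CD73 KO and 84.8, 81.8 and 75.4 CPM in WT, so that only the replicates numbered 3 crossed. Its log2 fold change was -0.37 ± 0.14 (adjusted p = 0.464). The DNAJ cochaperones of BiP showed less. Dnajb11 and Dnajc3 had -0.11 ± 0.11 and -0.08 ± 0.12. Dnajb9, which helps BiP keep IRE1 inactive, was the only chaperone member that was higher in CD73 KO, at 0.33 ± 0.24 (adjusted p = 0.677), and was picked for this. Its values were 21.3, 12.7 and 14.04 CPM in CD73 KO and 11.8, 16.2 and 10.4 CPM in WT, with CD73 KO replicate 1 on top. Leaving that library out gave 0.053, and leaving out the library labelled WT replicate 2 gave 0.52.

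**Figure D2:**
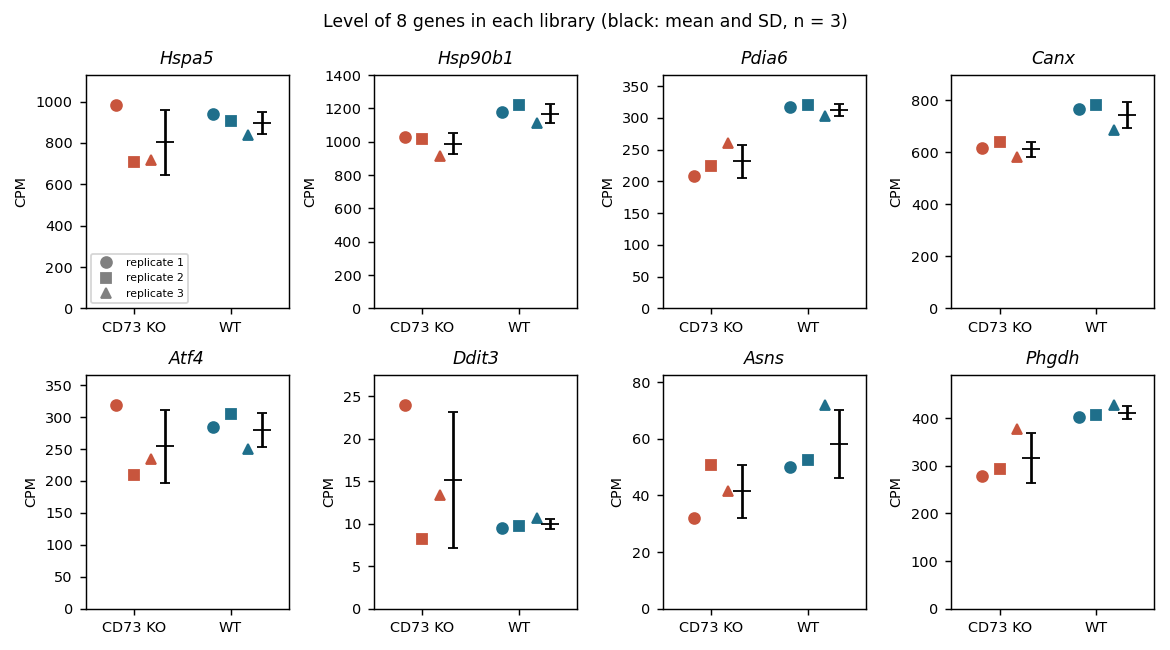
CPM (y axis, from 0) of 8 genes in each of the 3 CD73 KO and 3 WT libraries, the marker shape giving the replicate and the black bar the mean and SD (n = 3). Hsp90b1, Pdia6, Canx and Phgdh do not overlap between the groups, while Hspa5, Atf4 and Ddit3 each have CD73 KO replicate 1 as the highest library.

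By abundance the ER chaperones held most of the reads of the members. Together the 14 genes took 0.515% to 0.533% of all counts in the CD73 KO libraries and 0.582% to 0.639% in the WT libraries. Per exon length, in TPM (transcript abundance scaled for length) averaged over the 6 libraries, Calr led at 976 ± 101, followed by Pdia3 at 905 ± 113, Hsp90b1 at 824 ± 88.7 and Hspa5 at 617 ± 73.2 (SD, n = 6). The means of Calr and Pdia3, and those of Pdia3 and Hsp90b1, lay closer together than these SDs, which span both genotypes. Within libraries, Pdia3 was above Hsp90b1 in every one. Calr was above Pdia3 in all but CD73 KO replicate 2, where they had 873 and 877 TPM. These orders were not tested. Canx followed at 445, and the least abundant of the chaperones was Dnajb9 at 17.3 TPM. Within WT, replicate 3 had the lowest CPM of the group in all 14 chaperones, as it did in 38.6% of all tested genes (and the highest in 39.7%), and it was also the library with the fewest counts. The part of that depth in the result was not tested. In 10 of the 14 the library labelled WT replicate 2 had the highest CPM of its group, against 30.4% of all tested genes. Its Nt5e lay inside the CD73 KO range, as given above.

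Promoters of some chaperones hold an element known from genes of this response, so the choice of members is not independent of it. The ER stress response element (ERSE), where ATF6 and XBP1 are known to act with NF-Y, reads CCAAT, any 9 bases, then CCACG. It was searched on both strands in RefSeq promoters (GRCm38.p6), from 250 bases before to 50 after the start, which were found for 29 of the 32 members. An exact match stood in 7 of 12 chaperone promoters and in 1 of 4 degradation promoters (Syvn1), against 0.119% of all 32851 promoters (39). None of the 9 promoters of ATF4 targets held one. The difference between these lists was not tested. The matches in members are printed to show where the element lies, each 5′ to 3′ on the gene's strand with ERSE in capitals. A capital run that opens with CG is the element on the opposite strand. In Hspa5 the stretch is short because it lies in an annotated GENCODE exon.
Hspa5, chr2:34772020-34772048, plus strand: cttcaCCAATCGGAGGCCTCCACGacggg
Hsp90b1, chr10:86705513-86705676, minus strand: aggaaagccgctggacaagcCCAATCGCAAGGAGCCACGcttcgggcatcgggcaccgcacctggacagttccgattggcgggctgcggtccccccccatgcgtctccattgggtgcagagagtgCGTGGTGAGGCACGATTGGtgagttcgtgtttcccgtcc
Calr, chr8:84847055-84847113, minus strand: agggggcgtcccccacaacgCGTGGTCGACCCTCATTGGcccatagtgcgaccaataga
Canx, chr11:50325780-50325838, minus strand: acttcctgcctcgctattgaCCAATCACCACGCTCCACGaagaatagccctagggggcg
Pdia6, chr12:17266471-17266529, plus strand: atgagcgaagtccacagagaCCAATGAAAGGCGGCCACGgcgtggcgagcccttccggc
Creld2, chr15:88819500-88819558, plus strand: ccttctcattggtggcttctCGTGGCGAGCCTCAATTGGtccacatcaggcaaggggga
Dnajc3, chr14:118937807-118937865, plus strand: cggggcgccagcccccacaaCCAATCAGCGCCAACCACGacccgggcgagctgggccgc
Syvn1, chr19:6046512-6046570, plus strand: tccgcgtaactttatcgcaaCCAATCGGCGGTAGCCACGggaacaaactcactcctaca

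Hsp90b1 held the element on both strands, at -212 and -107 bases from the start, and Hspa5 held it at -65. A match is a run of letters and does not show binding. The 7 chaperones with an exact match had -0.25 as their median log2 fold change, from -0.44 (Pdia6) to -0.08 (Dnajc3). The 5 with a promoter in the table and no exact match (Pdia3, Pdia4, Dnajb9, Dnajb11 and Sdf2l1) had the same median of -0.25, from -0.37 to 0.33. Syvn1, with a match, stood at 0.07. Of genes outside the members, 6 with a match were tested (Acacb, Adcy3, Alg12, Hnrnpa3, Pan2 and Xlr3b), and 1 of the 6 was lower in CD73 KO, with a median of 0.20.

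The shorter element ERSE-II reads ATTGG, any base, then CCACG. It stood in 0.0365% of all promoters and in those of Herpud1, at -52 bases from the start, and Dnajb11, just after it. The core TGACGTGG, bound by XBP1 and ATF6, stood in 0.676% of all promoters and in 0 of the 29. The Herpud1 element is printed because it is the only one among the degradation genes, with ERSE-II in capitals.
Herpud1, chr8:94386357-94386407, plus strand: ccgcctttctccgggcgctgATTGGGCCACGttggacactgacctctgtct

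Genes of ER-associated degradation differed little between the genotypes. Of 4 members 3 were lower, their median log2 fold change was -0.02, and 0 had an unadjusted p under 0.05. Sel1l and Syvn1 form the ubiquitin ligase core of this pathway. Sel1l had 84.8, 94.4 and 72.4 CPM in CD73 KO and 100.1, 95.3 and 87.2 CPM in WT, a log2 fold change of -0.17 ± 0.12 (adjusted p = 0.680). Syvn1 had 49.5, 46.4 and 57.6 CPM against 51.3, 45.4 and 49.6 CPM. The groups overlapped in both genes. Edem1, which marks misfolded glycoproteins for removal, had 239, 238 and 208 CPM in CD73 KO and 222, 240 and 235 CPM in WT.

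Herpud1, a membrane scaffold of the degradation complex that both ATF6 and ATF4 are known to induce, split the CD73 KO libraries as Hspa5 did, and was picked for this. It had 81.9 CPM in CD73 KO replicate 1 and 45.9 and 52.3 CPM in the others, while the WT libraries lay close together at 62.8, 60.1 and 59.7 CPM. The WT values fell inside the CD73 KO range, and the log2 fold change was -0.02 ± 0.19, with -0.32 when CD73 KO replicate 1 was left out and 0.15 when replicate 2 was.

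Among the sensors, Xbp1 was the member with the smallest p-value. It had 106, 90.1 and 125 CPM in CD73 KO and 150, 129 and 111 CPM in WT. Only CD73 KO replicate 3 lay in the WT range, and the log2 fold change was -0.28 ± 0.15 (adjusted p = 0.568). It was -0.17 when CD73 KO replicate 2 or WT replicate 1 was left out. Counts per gene do not separate the spliced from the unspliced mRNA of Xbp1. Eif2ak3 had 68.4, 60.6 and 55.5 CPM in CD73 KO and 67.3, 89.1 and 61.8 CPM in WT, with the library labelled WT replicate 2 alone above the rest (-0.24 ± 0.15, adjusted p = 0.627). Without that library the log2 fold change of Eif2ak3 was -0.08. Ern1 was the scarcest sensor, at 7.22, 6.92 and 7.11 CPM against 7.38, 7.13 and 5.69 CPM (40 to 136 counts), and had 0.07 ± 0.20. Atf6 had -0.02 ± 0.14 and was 0.11 without CD73 KO replicate 3. Per exon length Xbp1 averaged 112 TPM, Eif2ak3 34.3, Atf6 19.38 and Ern1 2.60.

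Atf4 is controlled chiefly by translation, so its mRNA does not give the level of the protein. It had 318, 210 and 234 CPM in CD73 KO and 284, 304 and 250 CPM in WT. CD73 KO replicate 1 was the highest library and the other CD73 KO libraries the lowest, as in Hspa5. The log2 fold change was -0.14 ± 0.15 (adjusted p = 0.793). Leaving out CD73 KO replicate 1 gave -0.34, and leaving out replicate 2 gave -0.017.

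The 9 ATF4 targets had no common direction. Of these 5 were lower and 4 higher, and their median log2 fold change was 0.00 (-0.0046, the value of Trib3). They divide by function, a division made after the values were seen. The 3 enzymes of amino acid synthesis were all lower, with a median of -0.38, and 2 of 3 had an unadjusted p under 0.05. The 6 regulators and effectors of stress had a median of 0.24, with 4 higher and 2 lower, and 0 had an unadjusted p under 0.05.

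Phgdh and Psat1 catalyse successive steps of serine synthesis, and Asns makes asparagine. Phgdh had 279, 294 and 377 CPM in CD73 KO and 401, 407 and 427 CPM in WT. The groups did not overlap, and the log2 fold change of -0.38 ± 0.12 (adjusted p = 0.387) equals -23.0%. Asns had 32.03, 50.7 and 41.6 CPM in CD73 KO and 49.9, 52.6 and 71.8 CPM in WT. One CD73 KO library, replicate 2, reached into the WT range, and the log2 fold change was -0.48 ± 0.19 (adjusted p = 0.482, and 0.0482 to 0.999 over the alternatives). Psat1 had 200.3, 267 and 240.0 CPM against 284, 262 and 280 CPM, with -0.22 ± 0.12 (adjusted p = 0.574). Leaving out WT replicate 3 gave -0.31 for Asns, and leaving out CD73 KO replicate 1 gave -0.13 for Psat1. In all 3 genes CD73 KO replicate 1 was the lowest library of the 6.

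Ddit3, whose product CHOP promotes death under lasting stress, had the largest log2 fold change of any member, 0.61 ± 0.35, and did not pass the test (adjusted p = 0.598). Its values were 24.0, 8.18 and 13.4 CPM in CD73 KO and 9.55, 9.79 and 10.7 CPM in WT. The WT libraries averaged 10.0 CPM with an SD of 0.585 (n = 3), and CD73 KO replicate 1 stood alone above every other library. Without it the log2 fold change was 0.09. Ddit3 overlaps Mars on the opposite strand, a gene whose counts reached 1566% of its own, and no strand setting of the counting is given.

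Atf3 and Ppp1r15a are stress-induced as well, and were picked for their spread. Atf3, a transcription factor, had 25.9, 9.89 and 8.75 CPM in CD73 KO and 10.1, 21.6 and 16.2 CPM in WT, a log2 fold change of -0.08 ± 0.47. Both groups spanned most of the range, so a difference of this size was not detectable here. Ppp1r15a, which encodes the phosphatase subunit that ends eIF2 phosphorylation, had 60.5, 38.6 and 58.0 CPM against 34.9, 49.1 and 44.6 CPM, with 0.29 ± 0.19 (adjusted p = 0.645). The remaining targets were scarce. Atf5 had 30 to 94 counts a library (0.18 ± 0.24), Trib3, a pseudokinase, 48 to 102 (0.00 ± 0.25) and Chac1, which breaks down glutathione, 5 to 21 (0.37 ± 0.41). Atf5 shares its locus with Nup62, whose counts reached 5825% of its own.

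**Figure D3:**
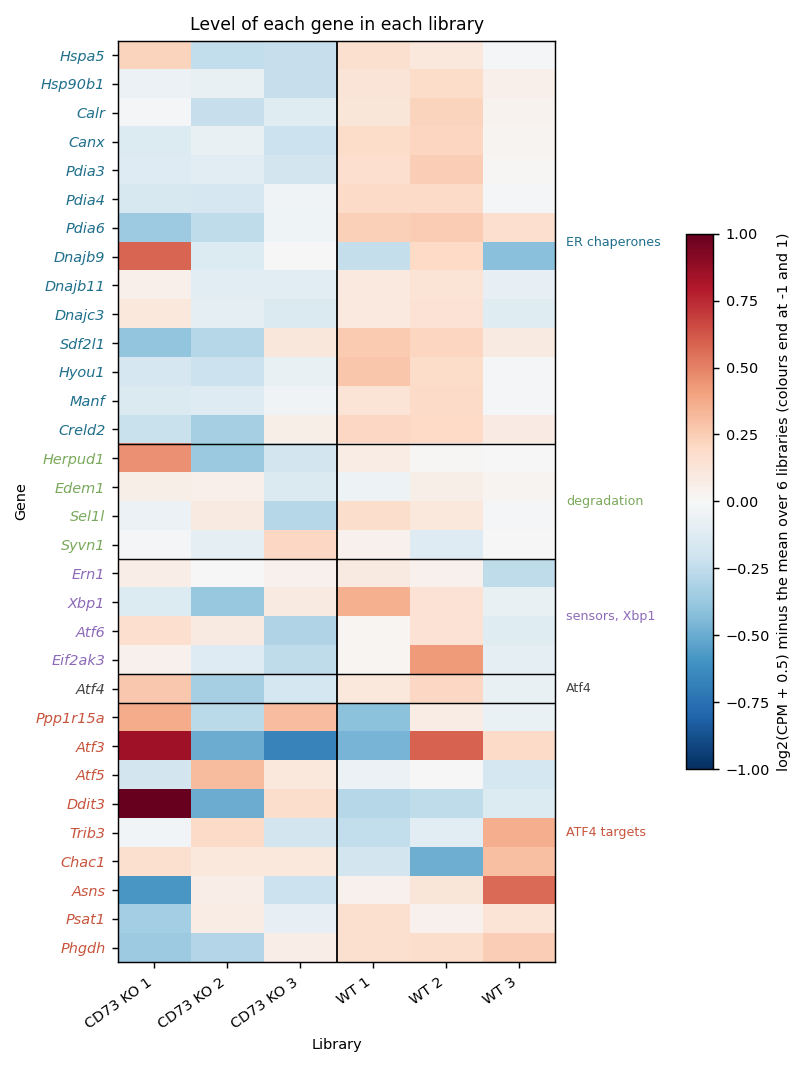
Level of each of the 32 genes (rows, coloured by role) in each library (columns), as log2(CPM + 0.5) minus the gene's mean over the 6 libraries, red above and blue below. The ER chaperones are mostly blue in CD73 KO and mostly red in WT replicate 1 and WT replicate 2. In WT replicate 3 they are mixed, with a mean of -0.01. CD73 KO replicate 1 is red for Ddit3, Atf3, Dnajb9, Herpud1, Ppp1r15a and Atf4 and blue for Asns, Psat1 and Phgdh.

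CD73 KO replicate 1 was the highest library for 3 of the ATF4 targets and the lowest for 4. Of the 32 members it was the highest library for 8 (Hspa5, Dnajb9, Herpud1, Atf6, Atf4, Ppp1r15a, Atf3 and Ddit3) and the lowest for 7 (Pdia6, Sdf2l1, Manf, Atf5, Asns, Psat1 and Phgdh). It was also the library with the most counts, 19382950, and the part of depth in this was not tested. The share of all tested genes for which it was the highest or lowest of all libraries was not worked out, so these counts are not read as a trait of this library. Within its group it was the highest for 16 members and the lowest for 7, against 33.2% and 35.1% of all tested genes. The 16 of 32 lay above that share, and the 7 of 32 below it.

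A core known to bind ATF4 with C/EBP factors, TGATGNAAT, stood in 0.965% of all promoters and in 0 of the 29 promoters of members. The shorter TGATGNAA, searched after that result was seen, stood in 3.97% of all promoters and in 4 of 9 promoters of ATF4 targets (Asns, Atf3, Chac1 and Trib3), in that of Herpud1 and in 0 of 12 chaperone promoters. No match says only that these letters are not in this window. Matches before the start are printed with the core in capitals, TTGCATCA being the opposite strand, and Asns is cut short because the stretch lies in a GENCODE exon.
Asns, chr6:7693220-7693237, minus strand: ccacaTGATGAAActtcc
Atf3, chr1:191183416-191183463, minus strand: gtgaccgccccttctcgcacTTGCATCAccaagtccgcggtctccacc
Chac1, chr2:119351029-119351076, plus strand: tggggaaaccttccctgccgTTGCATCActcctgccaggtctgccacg
Herpud1, chr8:94386297-94386344, plus strand: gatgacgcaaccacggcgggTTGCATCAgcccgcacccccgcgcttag
Genes with this core fell on both sides, Asns at -0.48, Atf3 at -0.08, Trib3 at 0.00, Herpud1 at -0.02 and Chac1 at 0.37.

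Set side by side, the chaperones had a median log2 fold change of -0.25 and the ATF4 targets one of 0.00, a difference of -0.24. This is a description of chosen lists, and the difference between them was not tested. As the mean over genes of log2(CPM + 0.5), set against the average of all 6 libraries, the chaperones lay at -0.06, -0.18 and -0.09 in the CD73 KO libraries and at 0.15, 0.19 and -0.01 in WT. The enzymes of amino acid synthesis lay at -0.43, -0.05 and -0.07 in CD73 KO and at 0.12, 0.11 and 0.32 in WT. The groups stayed apart in both sets, but the order of the libraries differed, since the library lowest for the enzymes was CD73 KO replicate 1 and that lowest for the chaperones was replicate 2. The other 6 ATF4 targets lay at 0.36, -0.11 and -0.03 in CD73 KO and at -0.28, -0.03 and 0.08 in WT, and the groups overlapped.

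**Figure D4:**
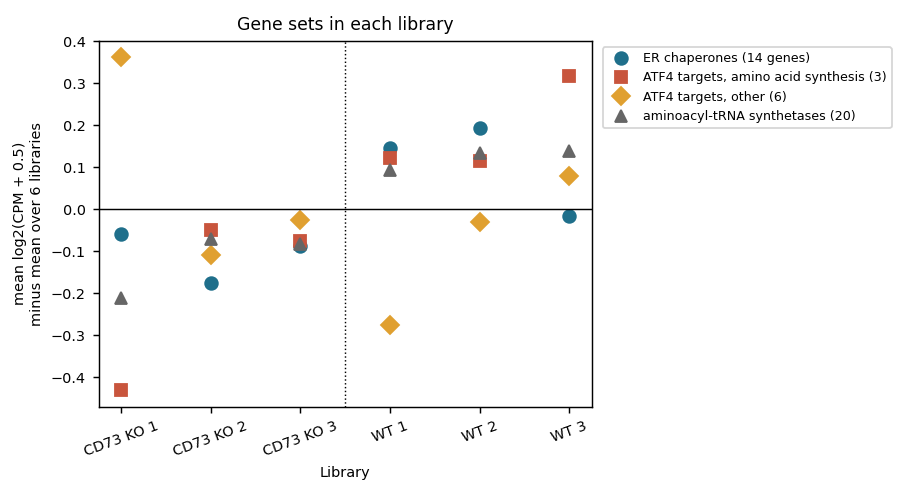
Mean over the genes of a set of log2(CPM + 0.5), minus the mean over the 6 libraries (y axis), for 4 gene sets in each library (x axis). The CD73 KO and WT libraries stay apart for the ER chaperones, the amino acid enzymes and the aminoacyl-tRNA synthetases, and overlap for the other 6 ATF4 targets, which are highest in CD73 KO replicate 1.

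The rest of the pathway was read from lists of 134 further genes, of which 127 were tested. None passed the adjusted threshold in edgeR, and 26 had an unadjusted p under 0.05, 23 lower and 3 higher in CD73 KO. The shares of all tested genes were 3.89% for lower and 5.75% for higher. The 20 cytosolic aminoacyl-tRNA synthetases, which charge tRNAs and are in part induced by ATF4, were all lower. Their median log2 fold change was -0.26, close to that of the chaperones. An unadjusted p under 0.05 was found for 11, against 3.89% of all tested genes that were lower. In 14 the CD73 KO libraries lay below every WT library, against 7.61% of all tested genes. Gars had -0.38 ± 0.09 (adjusted p = 0.287), Hars -0.29 ± 0.10 and Nars -0.35 ± 0.12. CD73 KO replicate 1 was the lowest of the 6 libraries for 14 of 20 genes. The share of all tested genes for which it was so was not worked out. It cannot exceed 35.1%, the share for which this library was the lowest of its own group.

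Other enzymes and transporters of amino acids and one-carbon units were lower in 14 of 17 tested, with a median of -0.24. Slc7a5, which imports large neutral amino acids, had -0.57 ± 0.12 (adjusted p = 0.187), Psph, the last enzyme of serine synthesis, -0.38 ± 0.14, and Got1 -0.28 ± 0.10. The median of 9 tested ATF4-linked regulators was 0.21, with Cebpb at 0.73 ± 0.30, Ddit4 at 0.37 ± 0.16 and Jdp2 at 0.39 ± 0.21. The medians of regulators and enzymes thus lay on opposite sides of 0, a difference that was not tested. The median of the regulators was 0.023 when the library labelled WT replicate 2 was left out.

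Genes of the ER beyond the members had medians nearer to 0 than the chaperones. The translocon, signal peptidase and glycosylation genes were lower in 21 of 23, with a median of -0.11, led by the oligosaccharyltransferase subunit Rpn1 at -0.34 ± 0.11 (adjusted p = 0.374), then Spcs3 at -0.29 ± 0.12 and Rpn2 at -0.21 ± 0.10. Other folding and oxidation genes were lower in 15 of 19, also with a median of -0.11, and 0 had an unadjusted p under 0.05. In that list the smallest p-values belonged to Pdia5 (-0.69 ± 0.32), Tmx1 (-0.18 ± 0.10) and P4hb (-0.14 ± 0.09). Other degradation genes had a median of -0.06 over 16 tested, with Vcp, the ATPase that extracts substrates, at -0.22 ± 0.09, Edem2 at -0.16 ± 0.11 and Ube2g2 at -0.17 ± 0.12. Other sensors and regulators had a median of 0.05 over 10, with Atf6b at -0.28 ± 0.13, Creb3l2 at 0.43 ± 0.22 and Bloc1s1 at 0.42 ± 0.24.

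The machinery around eIF2 was lower in 11 of 13, with a median of -0.15. Eif2b5, the catalytic subunit of the exchange factor eIF2B, had -0.34 ± 0.11 (adjusted p = 0.398) and Eif2s1, the subunit that the stress kinases phosphorylate, -0.27 ± 0.10 (adjusted p = 0.448). The kinases differed among themselves. Eif2ak2, which encodes the double-stranded RNA sensor PKR and is an interferon-stimulated gene, had 104, 138 and 70.0 CPM in CD73 KO and 44.3, 60.2 and 74.4 CPM in WT, a log2 fold change of 0.81 ± 0.27 (adjusted p = 0.431). Eif2ak3 stood at -0.24, as given above, Eif2ak1 at -0.08 and Eif2ak4, the sensor of amino acid shortage, at -0.05.

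Single libraries decided how many members had a low p-value. The 11 with an unadjusted p under 0.05 became 3 without WT replicate 1 and 3 without the library labelled WT replicate 2, and in each of these fits 1 chaperone was left of 9. The share of all tested genes was lower as well, at 6.17% and 4.48% in place of 9.64%. The median of the chaperones ran from -0.30 without WT replicate 3 to -0.22 without the library labelled WT replicate 2, and 13 of 14 stayed lower in every such fit. In 9 of them the groups do not overlap, which fixes that direction. The median of the ATF4 targets ran from -0.15 without WT replicate 1 to 0.17 without CD73 KO replicate 3. The gap between both medians ran from -0.44 without WT replicate 3 to -0.09 without WT replicate 1.

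With the library labelled WT replicate 2 left out, the log2 fold change was -0.43 for Pdia6, -0.22 for Hsp90b1 and -0.25 for Canx. The same fit gave -0.39 for Phgdh, -0.56 for Asns, -0.29 for Xbp1 and -0.078 for Atf4, while Atf3 stood at 0.20 and Atf6 at 0.044, both on the other side of 0. The median of the ATF4 targets was 0.12 and that of the sensors -0.016. Of the other pathway genes, 10 were lower and 1 higher at an unadjusted p under 0.05, in place of 23 and 3. The aminoacyl-tRNA synthetases were lower in 20 of 20, with a median of -0.23 and 6 at that p, in place of 11.

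**Figure D5:**
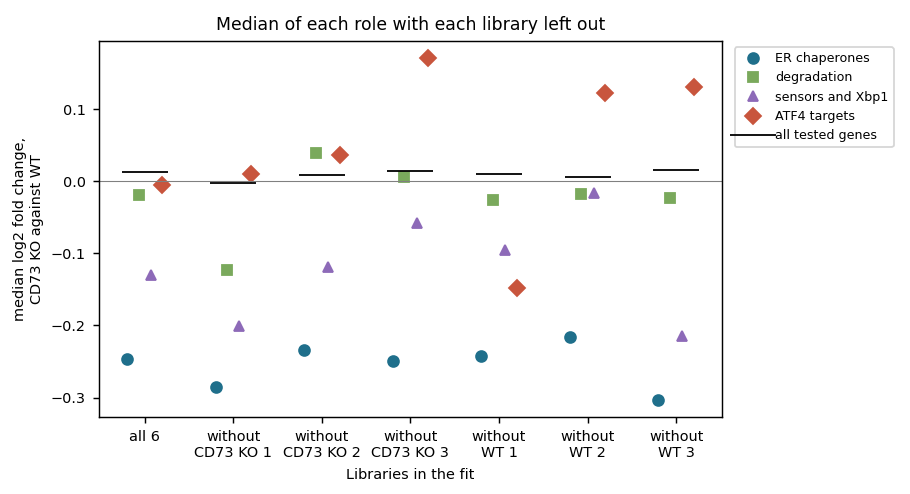
Median log2 fold change, CD73 KO against WT (y axis), of each role with all 6 libraries and with each library left out (x axis), and that of all tested genes as a black dash. The ER chaperones stay between -0.30 and -0.22, and the ATF4 targets cross 0.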

How the data were processed

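The authors deposited 1 table of raw read counts, unnormalized, for 6 libraries and Ensembl gene identifiers. Per the submitters' processing notes, fastp, HISAT2 and featureCounts were used with the mm10 build. The sources used here give no versions, annotation release or strand setting, and the library kit is stranded per the labels' protocols. Without a known strand setting, reads of genes that overlap on opposite strands cannot be told apart. Manf (with Dcaf1), Syvn1 (Mrpl49), Atf5 and Ddit3 overlap expressed genes on the opposite strand. Manf also overlaps Rbm15b on its own strand, which a strand setting could not separate. The counts of Rbm15b reached 84.2% of those of Manf.

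Genes were kept with filterByExpr (minimum count 10, minimum total 15) and compared with edgeR 4.0.16 (TMM factors, robust quasi-likelihood F-test, legacy fit, R 4.3.3). The Benjamini-Hochberg adjustment covered the 12242 genes tested. The SE is the log2 fold change divided by the square root of F. CPM use TMM-scaled totals. TPM use exon-union lengths of GENCODE M21 on GRCm38, the assembly of mm10. Transcripts of other genes were matched to members (blastn 2.17.0, at least 90% identity over at least 70% of their length). Each single gene so found had counts of at most 1.20% of those of its member. The highest was Gm7901, a processed pseudogene of Phgdh. Reads that map to a member and a copy alike were not examined. The 37 mitochondrially encoded genes were listed at 0. The fit was tested on simulated data.

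The members and lists were chosen with earlier results of these data known. All 32 members are named. Values per library are given for Hspa5, Xbp1, Atf4 and Ddit3, the 3 smallest p in each role and members without overlap, and those picked later are marked. Other lists are named by their 3 smallest p. Alternatives were RLE factors, library size alone, no filter, 1 CPM in 3 libraries, DESeq2 1.42.0, the replicate number as a block, a fit that is not robust, and each library left out. The planned comparison of protein ends was not made, since no protein sequences were used here.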

Additional observations from a re-analysis of the deposited data

How the results depend on the processing

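Counts of calls depended on the filter and the tool. Without a filter on low counts edgeR called 298 of 21315 genes and 2 members, Pdia6 (adjusted p = 0.0417) and Asns (adjusted p = 0.0482), and DESeq2 called 99 genes and 0 members. Over the fits that left out 1 library, 4 to 8 genes and 0 members were called (4 without CD73 KO replicate 2 and without the library labelled WT replicate 2), and 3 to 12 members had an unadjusted p under 0.05. In those fits the median log2 fold change ran from -0.30 to -0.22 for the ER chaperones, from -0.12 to 0.039 for ER-associated degradation, from -0.21 to -0.016 for the sensors and Xbp1 and from -0.15 to 0.17 for the ATF4 targets. The difference between chaperones and ATF4 targets ran from -0.44 (without WT replicate 3) to -0.095 (without WT replicate 1). The directions of 7 members turned in at least 1 of these fits, with ranges of -0.32 to 0.15 for Herpud1, -0.064 to 0.039 for Edem1, -0.026 to 0.13 for Syvn1, -0.035 to 0.14 for Ern1, -0.12 to 0.11 for Atf6, -0.77 to 0.20 for Atf3 and -0.15 to 0.20 for Trib3. Trib3 also turned to 0.0029 with library size alone and to 0.0071 with the replicate block. The other 25 members kept their direction in all 13 alternatives.

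Same-numbered libraries did not deviate together (correlations across genes of 0.150, -0.170 and 0.0137), so the numbers were not taken to pair them. With the replicate block 5 genes and 0 members were called, and 10 members had an unadjusted p under 0.05. Of the 6 libraries, 1 (WT replicate 1) correlated best with its own number.

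Depth limits the scarce genes. Chac1 had as few as 5 counts, and Nupr1, Gdf15, Aldh1l2, Cbs, Slc7a11, Derl3 and Ern2 were too low to be tested. Counts alone set no limit on Hspa5, with at least 5881, but Dnajb9, also among the ER chaperones, had as few as 73.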
